A study of Mus musculus with 24 samples.

Results

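The genes described here encode the proteins that coat lipid droplets or help to build them. They are the 5 perilipins (Plin1, Plin2, Plin3, Plin4 and Plin5), the droplet fusion factor Cidec, the fat storage-inducing proteins Fitm1 and Fitm2, and Bscl2, which encodes seipin. These 9 genes, of 37310 in the deposited tables, were taken by symbol, and each symbol matched 1 Ensembl gene. Of the 9 genes, 8 reached the minimum level for testing (an FPKM of at least 1 in at least 2 libraries). Fitm1 did not. FPKM, the unit of all levels below, is the number of reads per kilobase of gene, scaled to the reads on genes in the library, so it allows levels of different genes to be compared per length.

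The study asked how EGCG (epigallocatechin gallate, the main catechin of green tea) changes gene expression while precursors of white and brown fat cells differentiate in culture. Cells of the stromal vascular fraction came from 2 depots of 6-week-old C57BL/6 mice, the inguinal white (WAT) and the interscapular brown adipose tissue (BAT). All cultures were induced with insulin, dexamethasone and 3-isobutyl-methylxanthine for 4 days, those of day 8 then received insulin and T3 (triiodothyronine) for another 4 days, and EGCG or DMSO (the control) was in the medium. This gave 8 groups of 3 libraries: WAT day 4 control, WAT day 4 EGCG, WAT day 8 control, WAT day 8 EGCG, and the same for BAT. The labels give no dose or start of EGCG treatment and do not say whether replicates are separate cell isolations, so the p-values measure the spread between libraries, which may be technical. The stromal vascular fraction is a mixture that also holds endothelial cells, immune cells and fibroblasts, and in such bulk RNA fewer cells of a type and less RNA per cell cannot be told apart.

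A lipid droplet is a core of triglyceride and sterol ester inside a phospholipid monolayer, and the perilipins sit on that monolayer. Plin1 is the main coat protein of mature fat cells, where it holds back lipolysis until it is phosphorylated. Plin2 and Plin3 coat small droplets in most cell types, Plin4 coats nascent droplets of fat cells, and Plin5 is typical of tissues that burn fat, such as brown fat, heart and muscle. Cidec lets a large droplet take up the lipid of a smaller one. The FITM proteins bind triglyceride in the endoplasmic reticulum, and seipin stands where a droplet buds from that membrane; people who lack seipin have almost no fat tissue.

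In the mouse genome build NCBIM37 (mm9), with the GENCODE vM1 annotation, all 9 are protein-coding genes. Plin1 (ENSMUSG00000030546.7) lies on chromosome 7 from 86866050 to 86877662, and Plin2 (ENSMUSG00000028494.6) on chromosome 4 from 86294290 to 86315964, both on the minus strand. Plin4, Plin5 and Plin3 follow each other on the minus strand of chromosome 17, Plin4 (ENSMUSG00000002831.7) from 56240014 to 56249225, Plin5 (ENSMUSG00000011305.5) from 56251024 to 56257019 and Plin3 (ENSMUSG00000024197.9) from 56418385 to 56429934. Only 1798 bases separate Plin4 from Plin5, and 161365 bases separate Plin5 from Plin3. Cidec (ENSMUSG00000030278.5) lies on chromosome 6 from 113374628 to 113385754 and Fitm2 (ENSMUSG00000048486.6) on chromosome 2 from 163292115 to 163298365, both on the minus strand. Fitm1 (ENSMUSG00000022215.4) lies on chromosome 14 from 56194511 to 56195789 and Bscl2 (ENSMUSG00000071657.6) on chromosome 19 from 8911957 to 8923173, both on the plus strand. The sources used here do not say whether reads were counted by strand, and 4 of the 9 share exonic bases with a gene on the other strand: Plin4 with Hdgfrp2, Fitm1 with Gm15932, Fitm2 with 2310001K24Rik and Bscl2 with Gng3. Reads of these pairs may be mixed, so their levels are uncertain to that extent.

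Plin1, Plin2 and Plin3 are the perilipins whose shares of perilipin RNA are compared below: under EGCG Plin1 fell in all 4 comparisons, Plin2 changed in both directions and Plin3 was never called lower. The 250 bases before their RefSeq start sites are shown for that reason, 5′ to 3′ on the strand of the gene, from RefSeq on build GRCm38.p6. Capitals mark matches, on either strand, to any of 6 motifs: AGGTCA (the nuclear receptor core), a direct repeat of AGGNCA with 1 base between the copies, CACGTG (the E-box), GGGCGG (the GC box), CCAAT and TATAAA (the TATA box).
Plin1, chr7:79732777-79733026, minus strand: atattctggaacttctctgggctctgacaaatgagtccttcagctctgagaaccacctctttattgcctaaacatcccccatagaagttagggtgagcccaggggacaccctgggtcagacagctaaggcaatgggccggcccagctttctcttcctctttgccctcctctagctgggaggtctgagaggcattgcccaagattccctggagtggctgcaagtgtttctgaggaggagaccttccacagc
Plin2, chr4:86670060-86670309, minus strand: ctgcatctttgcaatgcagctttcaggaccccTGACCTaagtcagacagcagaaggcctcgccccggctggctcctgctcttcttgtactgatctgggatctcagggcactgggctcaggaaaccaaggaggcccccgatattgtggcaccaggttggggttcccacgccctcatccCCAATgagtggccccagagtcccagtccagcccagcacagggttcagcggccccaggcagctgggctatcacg
Plin3, chr17:56290512-56290761, minus strand: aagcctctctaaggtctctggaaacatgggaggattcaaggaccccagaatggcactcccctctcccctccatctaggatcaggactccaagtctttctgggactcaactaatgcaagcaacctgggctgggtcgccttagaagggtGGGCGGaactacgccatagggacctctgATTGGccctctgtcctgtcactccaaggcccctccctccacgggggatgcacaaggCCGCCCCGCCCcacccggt

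The Plin1 window held none of the 6 motifs. That of Plin2 held the nuclear receptor core 218 to 213 bases before the start, on the other strand, and CCAAT 73 to 69 bases before it. The Plin3 window held 3 GC boxes, of which the pair nearest the start shares a base, and 1 CCAAT on the other strand. Over the 13 windows that RefSeq gives for the 9 members, 3 held the nuclear receptor core, 4 a GC box and 5 CCAAT, and none held the direct repeat, the E-box or the TATA box. Of 32851 mouse windows of the same length, 14% held the nuclear receptor core, 0.338% the direct repeat, 6.02% the E-box, 32.7% a GC box, 33.8% CCAAT and 12.4% the TATA box. A match describes letters and shows no binding.

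Depth, as reads assigned to genes, ranged from 39452696 to 52893848 per library in replicates 1 and 2 and from 16392420 to 41675643 in replicate 3. Replicates 1 and 2 (16 libraries of 1 table) were tested, and replicate 3, deposited in a second table with its own scaling, is given beside them. WAT day 8 EGCG replicate 3 stood apart: 5 genes took 61.0% of its reads, against 3.64% to 10.5% in the other 23 libraries, which lowers the FPKM of every other gene in it. Its values are therefore given as deposited and, in brackets, after median-ratio scaling within its table. The depot labels were checked on known marker genes of the depots. On day 8, all 3 tested brown depot markers (4 in all) were called higher in BAT controls, and of 3 tested white depot markers (4 in all) Hoxc10 and Hoxc9 were called lower in BAT while Lep, the leptin gene, was called higher (57.7 against 21.6 FPKM, means of replicates 1 and 2). On day 4 Ucp1 and Lep were not called and the other 4 went with the labels. In the controls Hoxc10, a gene of posterior fat depots, ranged from 6.89 to 10.2 FPKM in WAT cells and from 0 to 0.0582 in BAT cells, and Zic1, a gene of the brown fat lineage, from 3.57 to 10.9 FPKM in BAT cells and from 0.0243 to 0.163 in WAT cells. Ucp1, the uncoupling protein of brown fat, reached no more than 6.97 FPKM in BAT day 8 controls and was at or below 0.423 FPKM in all other groups, so that this defining marker of mature brown fat cells was low or absent in BAT cells.

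With EGCG, Plin1, Plin4, Plin5, Cidec, Fitm2 and Bscl2 were lower in both depots on both days. Plin3 was higher in 3 of the 4 comparisons, and Plin2 was higher in WAT on day 4 and lower in the other 3. In WAT on day 4, 2 of the 8 tested members were called higher and 6 lower, where 34.4% and 19.3% of all 14095 tested genes were. The counts were 1 and 7 in WAT on day 8 (44.7% and 18.9% of all genes), 1 and 7 in BAT on day 4 (27.9% and 20.6%) and 0 and 7 in BAT on day 8 (46.5% and 26.1%). The median log2 change of the 8 was -0.76, -1.69, -0.71 and -2.47 in this order, beside 0.09, 0.17, 0.03 and 0.17 over all genes. A gene was called at a Benjamini-Hochberg adjusted p under 0.05 in limma, and each log2 change is a difference of log2(FPKM + 1), so that changes of low genes come out too small.

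**Figure D1:**
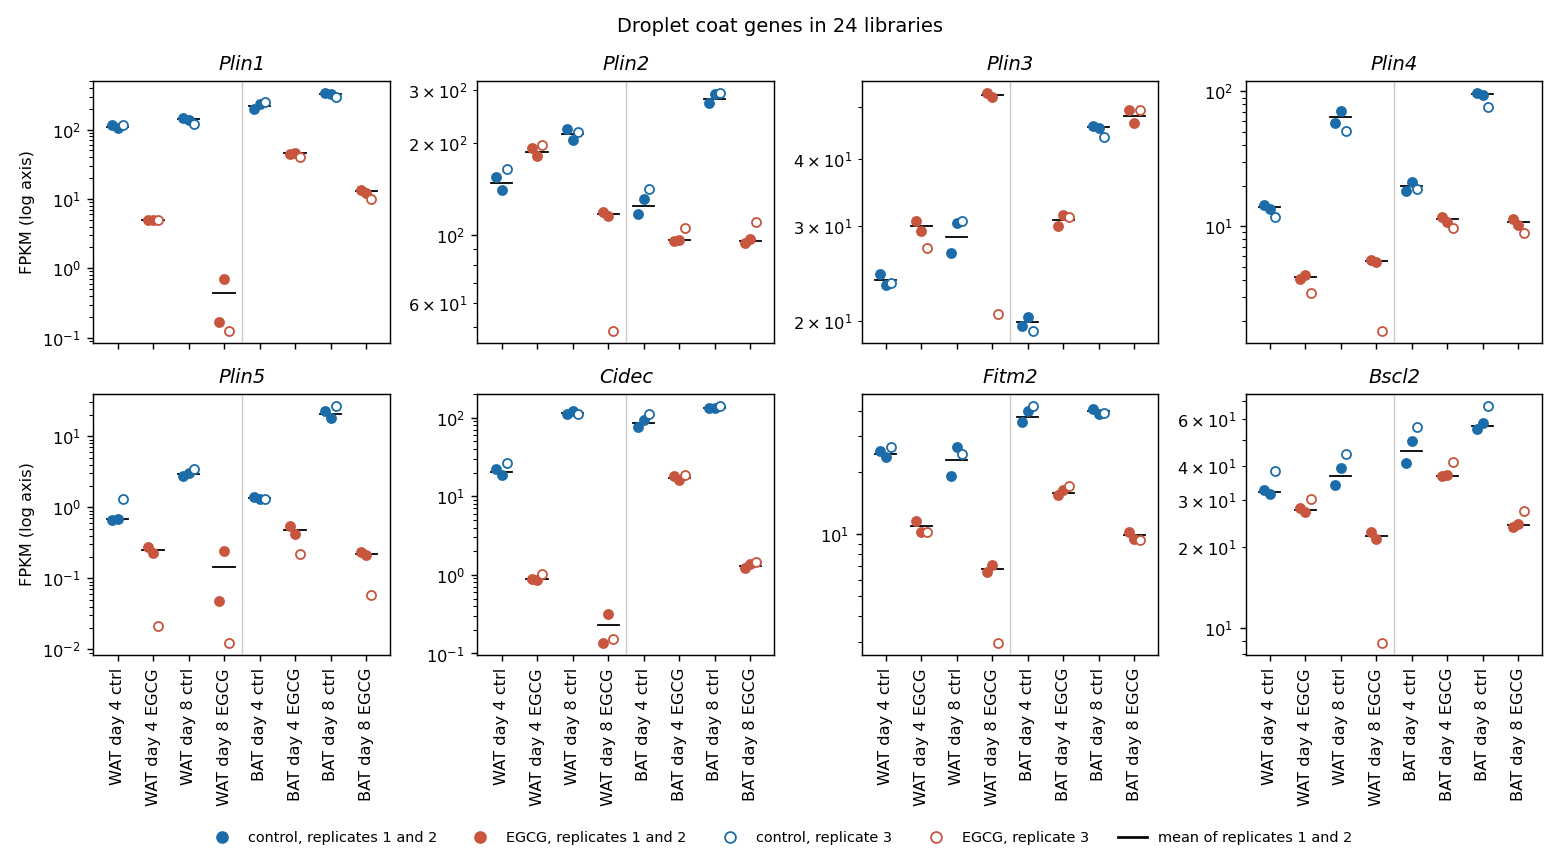
Level of the 8 tested members in each of the 24 libraries (vertical axes: FPKM, log scale, a separate range for each gene; horizontal axis: the 8 groups of depot, day and treatment, "ctrl" for control). Filled points are replicates 1 and 2, open points are replicate 3, blue is control, red is EGCG, and the black bar is the mean of replicates 1 and 2; Plin1 in WAT on day 8 goes from 119 to 147 FPKM in controls to 0.125 to 0.707 with EGCG, while Plin3 goes up in replicates 1 and 2.

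Plin1 showed the change in every library. Here and below, the 3 values of a group are those of replicates 1, 2 and 3. In WAT on day 4 it stood at 116, 105 and 116 FPKM in controls and 4.93, 4.99 and 4.94 with EGCG, a 22.3-fold lower mean (log2 change -4.22 ± 0.14 SE, adjusted p 1.24e-09). On day 8 the WAT controls held 147, 135 and 119 FPKM and the EGCG libraries 0.171, 0.707 and 0.125 (0.273 after scaling). The EGCG and control libraries of WAT lay far apart on both days. The day 8 means differed 321-fold (log2 change -6.65 ± 0.14, adjusted p 1.08e-11), and with so few reads left this ratio moves with each read.

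In BAT, where Plin1 was higher to begin with, more of it remained. Its controls stood at 199.9, 238 and 252 FPKM on day 4, against 44.4, 46.7 and 40.5 with EGCG (4.81-fold lower, log2 change -2.24 ± 0.14, adjusted p 1.63e-07). On day 8 they stood at 338, 322 and 297 against 13.5, 12.3 and 10.1 (25.6-fold lower, log2 change -4.58 ± 0.14, adjusted p 1.03e-10). The drop was larger in WAT than in BAT by 1.99 ± 0.20 on the log2 scale on day 4 (adjusted p 3.27e-05) and by 2.07 ± 0.20 on day 8 (adjusted p 1.31e-05). With a pseudocount of 0.1 in place of 1 the day 8 difference was 3.57.

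Plin2, the coat of small droplets in most cells, moved far less and in both directions. In WAT on day 4 it was at 155, 141 and 165 FPKM in controls and at 193, 182 and 198 with EGCG, and no EGCG library overlapped a control library (1.27-fold higher, log2 change 0.34 ± 0.07, adjusted p 0.00107). On day 8 the WAT controls stood at 223, 206 and 219 FPKM and the EGCG libraries at 119.6, 115 and 48.7 (106 after scaling), which was 1.83-fold lower (log2 change -0.86 ± 0.07, adjusted p 4.60e-07). Thus the same gene lay above the control on day 4 and below it on day 8 in WAT cells.

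BAT cells had less Plin2 with EGCG on both days. On day 4 the controls were at 117, 132 and 142 FPKM and the EGCG libraries at 96.0, 96.6 and 106 (1.29-fold lower, log2 change -0.37 ± 0.07, adjusted p 0.000720). By day 8 the controls had reached 270.4, 291 and 293 FPKM, and the EGCG libraries remained at 94.8, 97.5 and 111 (2.92-fold lower, log2 change -1.53 ± 0.07, adjusted p 1.67e-09). The EGCG change of Plin2 was lower in BAT than in WAT by 0.71 ± 0.09 (adjusted p 0.000257) on day 4 and by 0.67 ± 0.09 (adjusted p 0.000200) on day 8.

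Plin3, a perilipin that is stable in the cytosol and moves to newly formed droplets, rose in 3 of the 4 comparisons. WAT cells on day 4 held 24.4, 23.3 and 23.5 FPKM in controls and 30.6, 29.3 and 27.3 with EGCG (1.26-fold higher, log2 change 0.32 ± 0.06, adjusted p 0.000652). On day 8 they held 26.8, 30.4 and 30.7 in controls and 53.0, 52.1 and 20.6 with EGCG (1.84-fold higher, log2 change 0.86 ± 0.06, adjusted p 1.53e-07). The low value is that of the library with 61.0% of its reads on 5 genes, and after scaling it was 45.0 FPKM, above all 3 controls.

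In BAT on day 4 Plin3 was at 19.6, 20.3 and 19.2 FPKM in controls and at 30.0, 31.5 and 31.1 with EGCG, without overlap (1.54-fold higher, log2 change 0.60 ± 0.06, adjusted p 4.90e-06). On day 8 it was at 45.9, 45.7 and 43.9 in controls and at 49.3, 46.6 and 49.2 with EGCG, a log2 difference of 0.06 (95% interval -0.06 to 0.19, adjusted p 0.337) that did not pass the test and that turned to -0.12 with median-ratio scaling. The EGCG change of Plin3 was thus lower in BAT than in WAT by 0.79 ± 0.08 on day 8 (adjusted p 2.34e-05), and higher by 0.28 ± 0.08 on day 4 (adjusted p 0.0243), a call that was lost in 4 of 16 fits without 1 library (adjusted p up to 0.0847).

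Because the rises of Plin2 and Plin3 were small, both were also read under another scaling. Median-ratio scaling moved the median change over all genes from 0.09 to -0.02 in WAT on day 4, from 0.17 to 0.01 in WAT on day 8 and from 0.17 to 0.02 in BAT on day 8. With it, the percentages of all genes called higher and lower became 23.7% and 29.3%, 29.0% and 27.6%, and 36.2% and 33.6% in the same 3 comparisons. The members kept the same split between higher and lower in all 4 EGCG comparisons. In WAT on day 4 the Plin2 change was then 0.20 and that of Plin3 0.18 (adjusted p 0.0187 for each), and Plin3 was 0.66 higher in WAT on day 8 (adjusted p 1.50e-06) and 0.56 higher in BAT on day 4 (adjusted p 9.44e-06).

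**Figure D2:**
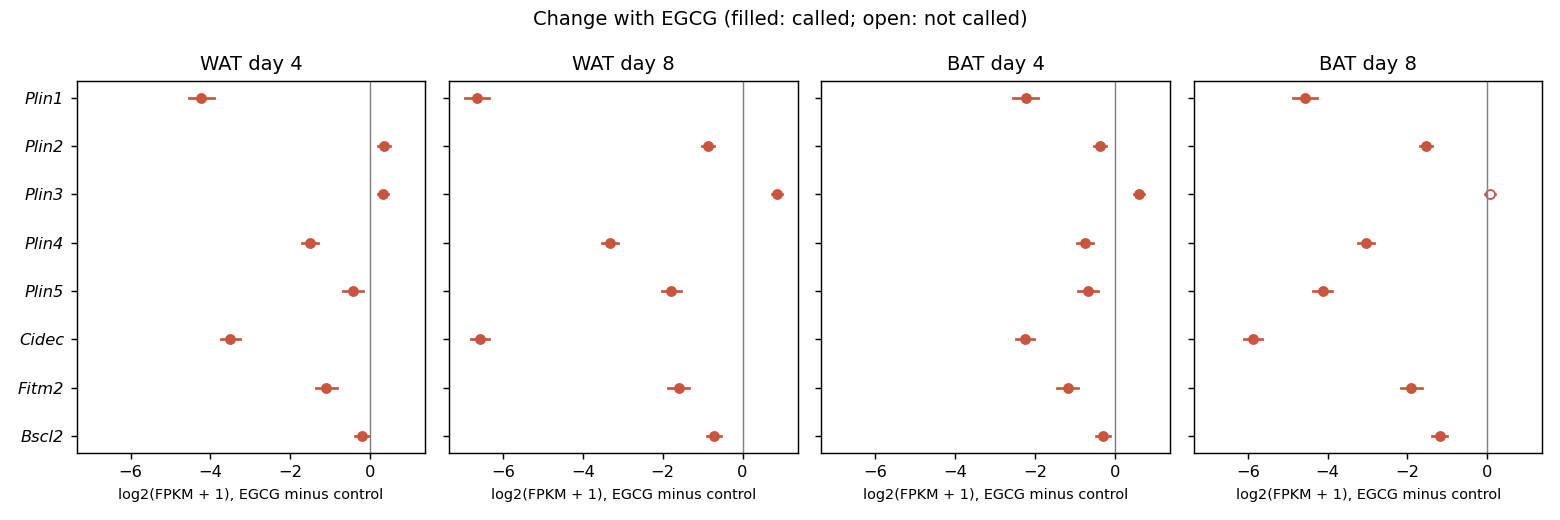
Log2 change with EGCG for the 8 tested members in the 4 combinations of depot and day (horizontal axis: difference of mean log2(FPKM + 1), EGCG minus control, replicates 1 and 2). Points are estimates and bars are 95% intervals from limma, filled where called and open where not; all points but those of Plin2 in WAT day 4 and of Plin3 lie left of 0, with Plin1 at -6.65 and Cidec at -6.57 in WAT on day 8.

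Plin4, a fat cell perilipin, fell under EGCG in all 4 comparisons and its control and EGCG libraries never overlapped. In WAT it stood at 14.3, 13.4 and 11.7 FPKM in day 4 controls and at 4.07, 4.33 and 3.19 with EGCG (3.29-fold lower, log2 change -1.51 ± 0.09, adjusted p 1.33e-07). On day 8 the WAT values were 58.4, 70.9 and 50.9 in controls and 5.62, 5.48 and 1.68 (3.67 after scaling) with EGCG (11.7-fold lower, log2 change -3.32 ± 0.09, adjusted p 1.13e-10). The drop in BAT was smaller on day 4, from 18.3, 21.2 and 19.0 to 11.7, 10.8 and 9.74 FPKM (1.75-fold, log2 change -0.75 ± 0.09, adjusted p 3.36e-05). On day 8 the BAT libraries went from 97.3, 93.4 and 76.9 to 11.4, 10.2 and 8.89 FPKM (8.81-fold, log2 change -3.03 ± 0.09, adjusted p 1.01e-10).

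Plin5, the perilipin of fat-burning tissue, was scarce except in BAT day 8 controls. There it stood at 22.8, 18.3 and 27.1 FPKM, and EGCG libraries of the same day held 0.237, 0.209 and 0.0583 (92.0-fold lower, log2 change -4.13 ± 0.11, adjusted p 4.66e-11). In WAT on day 8 the controls held 2.77, 3.06 and 3.46 FPKM and the EGCG libraries 0.0484, 0.240 and 0.0121, which is 5, 19 and 1 reads (20.2-fold lower for replicates 1 and 2, log2 change -1.78 ± 0.11, adjusted p 9.32e-08). Levels on day 4 were near the limit of 1 FPKM. They were 0.667, 0.681 and 1.29 FPKM in WAT controls against 0.274, 0.227 and 0.0215 with EGCG (adjusted p 0.00782), and 1.39, 1.31 and 1.29 in BAT controls against 0.539, 0.419 and 0.222 (adjusted p 0.000409). The EGCG change on day 8 was lower in BAT than in WAT by 2.35 ± 0.16 (adjusted p 1.25e-06), a call that voom on the recovered reads did not keep (adjusted p 0.0922).

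Cidec, which joins droplets into larger ones, lost nearly all of its RNA in WAT. On day 4 it stood at 21.9, 18.8 and 26.8 FPKM in controls and at 0.896, 0.860 and 1.02 with EGCG (23.2-fold lower, log2 change -3.50 ± 0.11, adjusted p 9.66e-10). On day 8 the WAT controls held 112, 119.9 and 111 FPKM and the EGCG libraries 0.134, 0.321 and 0.153 (0.335 after scaling). The means of replicates 1 and 2 differed 509-fold (log2 change -6.57 ± 0.11, adjusted p 2.26e-12). With 12, 22 and 11 reads of Cidec in these EGCG libraries, the ratio moves with each read. In BAT on day 4 the values went from 75.9, 93.5 and 112 to 17.9, 15.99 and 18.7 FPKM (log2 change -2.25 ± 0.11, adjusted p 2.07e-08). The EGCG libraries of BAT thus held more Cidec on day 4 than on day 8, when they were at 1.22, 1.37 and 1.45 FPKM against 134, 132 and 143 in controls (103-fold lower, log2 change -5.87 ± 0.11, adjusted p 3.44e-12). The drop was larger in WAT than in BAT by 1.25 ± 0.15 on day 4 (adjusted p 0.000129) and by 0.70 ± 0.15 on day 8 (adjusted p 0.00320).

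Fitm2, which partitions triglyceride into forming droplets, fell in both depots. On day 4 it went from 25.4, 23.8 and 26.6 to 11.7, 10.3 and 10.2 FPKM in WAT (2.24-fold, log2 change -1.10 ± 0.12, adjusted p 1.52e-05) and from 35.1, 39.7 and 42.4 to 15.5, 16.4 and 17.2 in BAT (2.34-fold, log2 change -1.18 ± 0.12, adjusted p 8.32e-06). On day 8 it went from 19.2, 26.6 and 24.7 to 6.52, 7.08 and 2.94 (6.42 after scaling) in WAT (3.37-fold, log2 change -1.60 ± 0.12, adjusted p 3.87e-07) and from 41.0, 38.6 and 39.0 to 10.3, 9.51 and 9.39 in BAT (4.02-fold, log2 change -1.90 ± 0.12, adjusted p 4.01e-08). The depots were not called different in this: the differences of their log2 changes were -0.08 ± 0.17 on day 4 (adjusted p 0.757) and -0.31 ± 0.17 on day 8 (adjusted p 0.182). The day 8 difference turned on single libraries, with -0.53 and a call (adjusted p 0.00464) without WAT day 8 control replicate 2 and a range of -0.53 to -0.08 over the fits without 1 library, and it was called with both tables and median-ratio scaling (-0.32, adjusted p 0.0445). Fitm1, the family member typical of muscle, had 0 reads in 10 of the 24 libraries and at most 6 in any, with 19 libraries at or under the floor of 3 reads. Its highest FPKM was 0.248, so no change was detectable at this depth.

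Bscl2, the gene of seipin, had the mildest decrease. In WAT on day 4 its values were 32.7, 31.6 and 38.3 FPKM in controls and 28.1, 27.2 and 30.4 with EGCG (log2 change -0.21 ± 0.08, adjusted p 0.0432), and 12 of 16 fits without 1 library lost the call (adjusted p up to 0.161). On day 8 they were 34.2, 39.5 and 44.6 in controls and 22.8, 21.4 and 8.77 (19.2 after scaling) with EGCG (1.67-fold lower, log2 change -0.71 ± 0.08, adjusted p 1.16e-05). BAT day 4 controls held 41.3, 49.7 and 56.0 FPKM and EGCG libraries 36.8, 37.1 and 41.5, where the ranges overlap (log2 change -0.29 ± 0.08, adjusted p 0.0113), and without BAT day 4 control replicate 2 the change was -0.16 (adjusted p 0.130). On day 8 they held 55.0, 58.2 and 67.4 in controls and 23.7, 24.5 and 27.2 with EGCG (2.35-fold lower, log2 change -1.20 ± 0.08, adjusted p 7.21e-08).

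Replicate 3, which entered none of these tests, went in the same direction in 31 of the 32 pairs of member and comparison, both as deposited and after scaling. As deposited the exception was Plin3 in WAT on day 8, in the library that stands apart, and after scaling it was Plin3 in BAT on day 8, which was not called.

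The make-up of the perilipin RNA can be read within each library, where no scaling between libraries enters. These are shares of RNA from a mixture of cells, and protein on droplets was not measured. In WAT day 4 controls Plin1 made up 37.0% ± 0.54 (SD, n = 3) of the summed FPKM of the 5 perilipins and Plin2 50.6% ± 1.31. With EGCG Plin1 fell to 2.16% ± 0.08 and Plin2 reached 83.4% ± 1.27. On day 8 the WAT share of Plin1 was 30.2% ± 1.98 in controls and 0.226% ± 0.16 with EGCG, while that of Plin3 was 6.65% ± 0.73 and 29.5% ± 0.50.

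In BAT controls Plin1 was the leading perilipin, with 57.3% ± 1.06 on day 4 and 41.9% ± 1.69 on day 8, and its shares with EGCG were 23.7% ± 1.85 and 6.99% ± 1.21. The BAT share of Plin2 went from 32.6% ± 0.54 to 53.7% ± 2.49 on day 4 and from 37.5% ± 2.40 to 58.8% ± 2.94 on day 8. That of Plin3 went from 4.94% ± 0.53 to 16.6% ± 0.26 and from 5.94% ± 0.01 to 28.2% ± 0.86. Control and EGCG libraries did not overlap for any of the 5 perilipins in any of the 4 combinations of depot and day, with the library that stands apart included. Each of these 20 differences had an exact two-sided permutation p of 0.10, the smallest that 3 against 3 libraries can give. The permutation exchanged the libraries freely and did not keep replicate 3, from the second table, apart. The 5 shares of a library make up its whole, so these differences are not separate results. A lower Plin1 share leaves a larger share for the others together. In BAT the Plin2 share rose while the level of Plin2 fell, 1.29-fold on day 4 and 2.92-fold on day 8. The BAT share of Plin3 rose with its level on day 4, and on day 8 while its level was not called different.

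**Figure D3:**
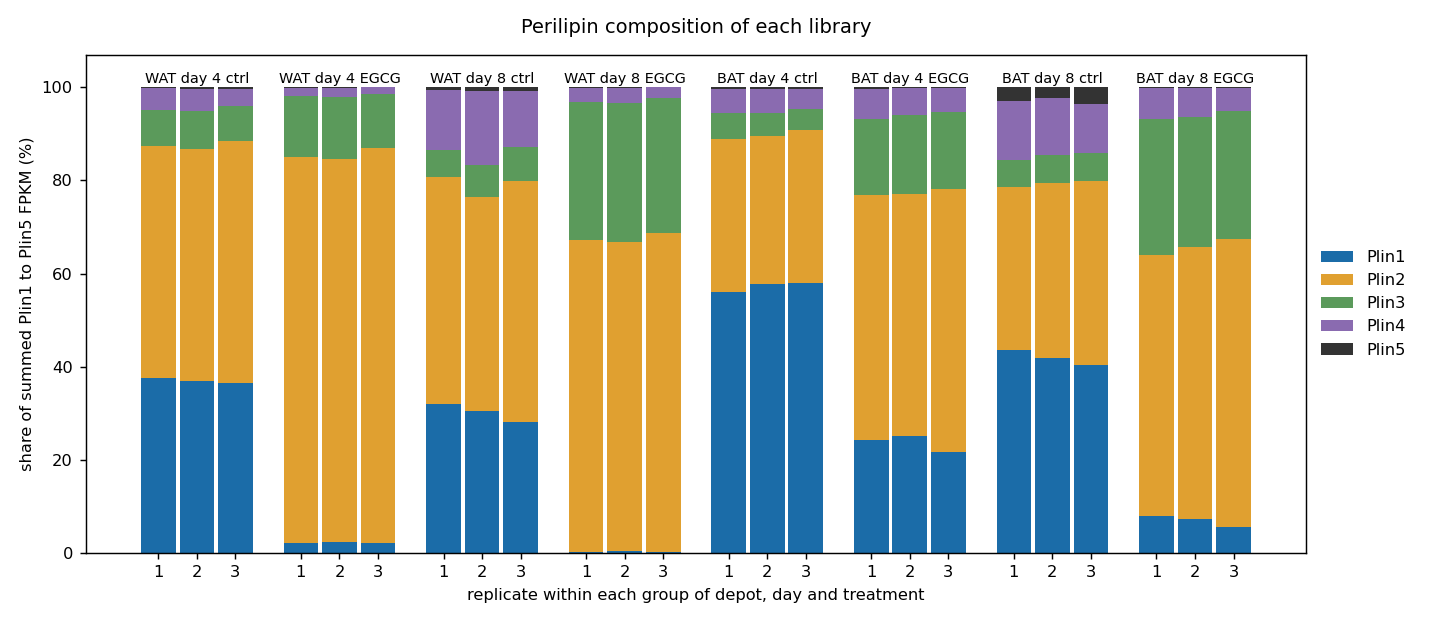
Share of each perilipin in the summed FPKM of Plin1 to Plin5 (vertical axis, %) in each of the 24 libraries (horizontal axis: replicates 1, 2 and 3 of each group). The Plin1 band shrinks from 37.0% to 2.16% in WAT on day 4 and from 41.9% to 6.99% in BAT on day 8, and the Plin3 band reaches 29.5% and 28.2% in WAT and BAT on day 8 with EGCG.

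The total of the 5 perilipins fell less than Plin1 did. It was 284 to 317 FPKM in WAT day 4 controls and 221 to 234 with EGCG, and 422 to 458 on day 8 against 174 to 178 in replicates 1 and 2 with EGCG (71.1 in the library that stands apart). BAT libraries went from 357 to 433 FPKM down to 183 to 188 on day 4, and from 737 to 774 down to 167 to 179 on day 8.

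From day 4 to day 8 the control cells gained RNA of most coat genes. In WAT controls 6 of 8 members were called higher on day 8 and 0 lower (27.7% and 33.2% of all genes), and in BAT controls 7 and 0 (28.7% and 40.4%, or 35.7% and 31.2% with median-ratio scaling). Plin4 rose 4.67-fold in WAT (log2 change 2.14 ± 0.09, adjusted p 6.92e-09) and 4.83-fold in BAT (2.22 ± 0.09, adjusted p 2.25e-09), from the day 4 and day 8 values given above. Cidec rose 5.68-fold in WAT (2.45 ± 0.11, adjusted p 7.38e-09) and 1.57-fold in BAT (0.66 ± 0.11, adjusted p 0.000163), where it was already at 75.9 FPKM or more on day 4. Plin5 rose 15.2-fold in BAT (3.19 ± 0.11, adjusted p 8.27e-10) and 4.33-fold in WAT (1.23 ± 0.11, adjusted p 2.18e-06).

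The smaller perilipin changes of the controls were graded. Plin2 rose 1.45-fold in WAT and 2.25-fold in BAT, and Plin3 1.20-fold and 2.30-fold (adjusted p 2.72e-05, 2.41e-08, 0.00262 and 8.19e-09 in this order). Plin1, already abundant on day 4, rose 1.51-fold in BAT (adjusted p 0.00240) and 1.27-fold in WAT (adjusted p 0.0474), and the WAT call was lost under 18 of 26 other settings. The pseudocount of 0.1 ended both calls (adjusted p 0.141 in BAT and 0.396 in WAT). Bscl2 rose 1.24-fold in BAT (adjusted p 0.00441, or 0.0571 without BAT day 4 control replicate 1) and had a log2 difference of 0.19 in WAT that was not called (95% interval 0.01 to 0.37, adjusted p 0.0617). That difference was called under 8 of 26 other settings, among them median-ratio scaling (adjusted p 0.0304) and voom (0.0450), and ranged from 0.09 to 0.29 over the fits without 1 library, with a call without WAT day 8 control replicate 1 (0.0139), BAT day 4 control replicate 1 or BAT day 4 control replicate 2 (0.0230 each). Fitm2 was not called in WAT (-0.12, 95% interval -0.38 to 0.15, but -0.34 and called without WAT day 8 control replicate 2) or in BAT (0.09, -0.17 to 0.35).

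With EGCG the coat genes did not gain in this way. In WAT with EGCG 2 members were called higher on day 8 than on day 4 and 5 lower (31.8% and 27.7% of all genes), and in BAT with EGCG 1 and 4 (29.7% and 28.2%). Plin3 was the member that rose in both, 1.75-fold in WAT (adjusted p 3.90e-07) and 1.56-fold in BAT (adjusted p 2.56e-06). Plin4 rose 1.32-fold in WAT (adjusted p 0.00829, or 0.0532 without WAT day 4 EGCG replicate 1) and was at a log2 difference of -0.05 in BAT (adjusted p 0.642). Plin1 fell 11.3-fold in WAT (adjusted p 1.96e-07) and 3.53-fold in BAT (adjusted p 7.61e-07), and Cidec 3.86-fold (adjusted p 0.000355) and 13.1-fold (adjusted p 2.89e-09). Fitm2 fell 1.62-fold in WAT (adjusted p 0.000880) and 1.61-fold in BAT (adjusted p 0.000740), and Bscl2 1.25-fold (adjusted p 0.00620, or 0.0501 without WAT day 8 EGCG replicate 2) and 1.53-fold (adjusted p 6.13e-05). Plin2 fell 1.60-fold in WAT (adjusted p 4.58e-06), and in BAT its log2 difference was -0.002 (95% interval -0.15 to 0.14). Plin5 was not called in either depot, with log2 differences of -0.13 in WAT and -0.27 in BAT (adjusted p 0.332 and 0.0554). The BAT difference of Plin5 was called under 5 of 26 other settings, among them the pseudocount of 0.1 (-0.84, adjusted p 0.0361).

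**Figure D4:**
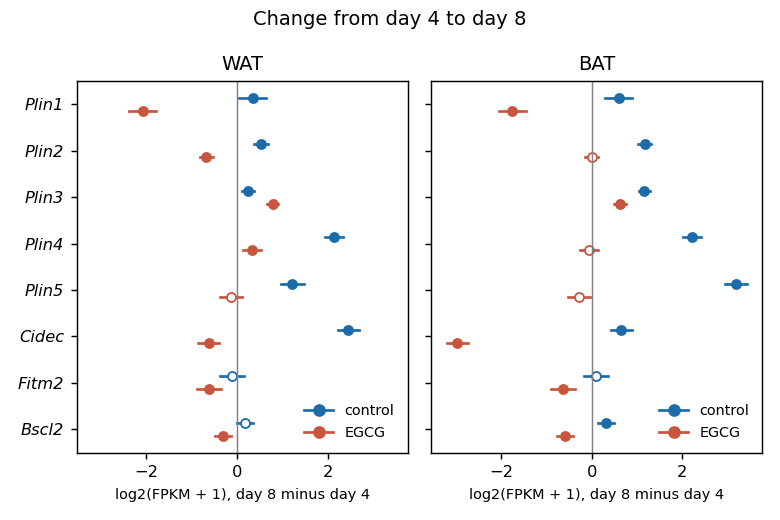
Log2 change from day 4 to day 8 for the 8 tested members in WAT and BAT cells (horizontal axis: difference of mean log2(FPKM + 1), day 8 minus day 4, replicates 1 and 2), blue for control and red for EGCG. Points are estimates and bars 95% intervals, filled where called; the red point lies left of the blue one for every member in both depots except Plin3 in WAT, where it is 0.79 against 0.25.

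The change with EGCG therefore depended on the day. All 8 members were called for a difference between the day 8 and the day 4 effect in WAT (49.4% of all genes were) and in BAT (55.4%). In WAT 7 of the 8 differences were below 0, from -3.07 ± 0.15 for Cidec (adjusted p 7.17e-08) to -0.50 for Fitm2 and Bscl2, and that of Plin3 was 0.54 ± 0.08 (adjusted p 0.000245). In BAT all 8 were below 0, from -3.62 ± 0.15 for Cidec (adjusted p 1.54e-08) to -0.53 ± 0.08 for Plin3 (adjusted p 0.000180). These differences are built from the same 16 libraries as the EGCG and day comparisons above and are no separate evidence for them. A difference in the EGCG effect between depots was called for 5 members on day 4 (28.1% of all genes) and 6 on day 8 (39.2%). Besides those given with each gene, Plin4 fell more in WAT on day 4 by 0.76 ± 0.13 (adjusted p 0.00144) and Bscl2 more in BAT on day 8 by 0.49 ± 0.11 (adjusted p 0.00568). Not called (BAT minus WAT) were Plin4 on day 8 (0.29, adjusted p 0.0988), and Plin5 (-0.25, adjusted p 0.273) and Bscl2 (-0.08, adjusted p 0.663) on day 4. The Plin4 difference was called under some other settings, among them voom (adjusted p 0.0330) and quantile normalization (adjusted p 0.0394).

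BAT control cells held more of most coat genes than WAT control cells. On day 4, 6 of 8 members were called higher in BAT and 2 lower (41.4% and 14.4% of all genes, or 24.7% and 23.2% with median-ratio scaling), and on day 8, 7 and 0 (31.6% and 22.0%). Cidec was 4.16-fold higher in BAT on day 4 (log2 change 2.00 ± 0.11, adjusted p 1.14e-07) and 1.15-fold on day 8, which was not called (0.20, 95% interval -0.03 to 0.43, adjusted p 0.131) but was with voom (0.20, adjusted p 0.0413) and with both tables without the outlying WAT library (0.25, adjusted p 0.0330). Plin5 was 2.00-fold higher on day 4 (0.49 ± 0.11, adjusted p 0.00323, but 0.0658 when replicate 3 was added without its outlying WAT library) and 7.03-fold higher on day 8 (2.45 ± 0.11, adjusted p 1.70e-08). Plin1 was 1.98-fold higher on day 4 (adjusted p 0.000131) and 2.34-fold on day 8 (adjusted p 1.86e-05). Fitm2 was 1.52-fold and 1.74-fold higher, Bscl2 1.42-fold and 1.54-fold, and Plin4 1.43-fold and 1.47-fold, on day 4 and day 8 in this order, all called.

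Plin2 and Plin3 changed sides between the days. On day 4 Plin2 was 1.19-fold lower in BAT than in WAT (adjusted p 0.00804, or 0.0781 without WAT day 4 control replicate 1 and 0.0878 without BAT day 4 control replicate 1) and Plin3 1.20-fold lower (adjusted p 0.00353), and on day 8 Plin2 was 1.31-fold (adjusted p 0.000444) and Plin3 1.60-fold higher in BAT (adjusted p 2.09e-06). By mean FPKM of replicates 1 and 2, the order in WAT controls on both days began with Plin2 and then Plin1, and in BAT controls on both days with Plin1, then Plin2, then Cidec. Plin5 and Fitm1 came last in all 4 control groups. Over all 3 libraries, neighbours in these orders overlapped in range for Fitm2 with Plin3 and Plin3 with Cidec in WAT on day 4, Plin1 with Cidec in WAT on day 8, and Bscl2 with Fitm2 and Plin3 with Plin4 in BAT on day 4, and for no other pair of neighbours.

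Other genes of the droplet were read beside the coat genes, from fixed lists. Of all tested genes, 34.4% were called higher and 19.3% lower with EGCG in WAT on day 4, and 44.7% and 18.9% on day 8. In BAT the shares were 27.9% and 20.6% on day 4 and 46.5% and 26.1% on day 8. These shares are the background of all list counts below, those of cell markers included. Of 8 triglyceride synthesis genes, 6 fell with EGCG in each of the 4 comparisons, with median log2 changes of -1.72 and -1.99 in WAT on day 4 and day 8 and -1.52 and -3.17 in BAT. Dgat2, which makes triglyceride, went from 102, 89.4 and 124 to 12.6, 12.7 and 13.0 FPKM in WAT on day 4 (7.58-fold, log2 change -2.82 ± 0.09, adjusted p 1.24e-09). On day 8 Dgat2 was 55.8-fold lower in WAT and 40.8-fold lower in BAT. Pcyt1a, an enzyme of the phosphatidylcholine synthesis that covers growing droplets, rose instead on day 8, 1.58-fold in WAT (adjusted p 1.09e-06) and 1.78-fold in BAT (adjusted p 7.54e-08).

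Of 7 genes of lipolysis at the droplet, 4 fell and 1 rose in WAT on day 4, 6 fell and 1 rose in WAT on day 8 and in BAT on day 4, and 7 fell in BAT on day 8. Pnpla2, the first triglyceride lipase, fell 7.20-fold in WAT on day 4 (adjusted p 2.82e-09) and 26.7-fold in BAT on day 8 (adjusted p 1.14e-11), and Lipe, the hormone-sensitive lipase, 12.7-fold and 21.3-fold in the same comparisons. Abhd5, the activator of Pnpla2 that Plin1 binds, had a log2 change of 0.01 in WAT on day 4 (adjusted p 0.953) and fell 1.99-fold there on day 8 (adjusted p 2.43e-07). The gene that rose was Hilpda, an inhibitor of Pnpla2: in WAT on day 4 it went from 19.7, 20.1 and 23.7 to 108, 94.1 and 115 FPKM (5.08-fold, log2 change 2.28 ± 0.06, adjusted p 3.47e-10). Hilpda rose 2.05-fold in BAT on day 4 (adjusted p 1.08e-07) and 1.22-fold in WAT on day 8 (adjusted p 0.00175), and it fell 1.59-fold in BAT on day 8 (adjusted p 1.19e-06).

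Other droplet-associated proteins moved little as a list. Of its 11 tested genes (12 in all), 5 rose and 2 fell in WAT on day 4, 7 and 1 in WAT on day 8, 5 and 1 in BAT on day 4 and 5 and 2 in BAT on day 8, with medians of 0.16, 0.23, 0.12 and 0.11. In BAT on day 8 these counts were near or below the shares over all genes (46.5% higher and 26.1% lower). Rab18, a small GTPase of the droplet surface, rose 1.18-fold, 1.42-fold, 1.20-fold and 1.30-fold in this order, and Aifm2 fell in all 4, by 4.23-fold, 4.65-fold, 4.20-fold and 13.6-fold. Of 9 tested PPAR target genes outside the droplet (10 in all), 7, 6, 5 and 7 fell and 1, 2, 2 and 2 rose in this order, with medians of -0.59, -1.30, -0.38 and -2.43.

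All 10 markers of the mature fat cell (Adipoq, Pparg, Cebpa, Fabp4, Lpl, Cd36, Slc2a4, Lep, Retn and Cfd) fell with EGCG in all 4 comparisons, with median log2 changes of -2.22 and -4.70 in WAT and -2.02 and -4.29 in BAT on day 4 and day 8. Markers of other cells in the fraction changed too. Of 6 endothelial markers 5 and 4 rose in WAT and 6 and 6 in BAT on day 4 and day 8, and their summed level went from 14.66 to 15.97 FPKM in WAT day 4 controls to 35.6 to 36.9 with EGCG, and from 16.9 to 17.4 in BAT day 8 controls to 34.5 to 35.5. The sum was 21.8 to 23.8 against 30.1 to 30.5 in WAT on day 8 and 11.3 to 13.8 against 36.2 to 39.3 in BAT on day 4, and no marker of this list was at 0.

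Of 7 tested macrophage markers (8 in all), 5 rose in WAT and 3 in BAT on day 4, and 7 and 6 fell on day 8. Their summed level was 67.3 to 72.0 FPKM in controls and 179 to 183 with EGCG in WAT on day 4, 98.8 to 111 and 55.4 to 58.6 on day 8, 154 to 163 and 343 to 383 in BAT on day 4, and 103 to 106 and 57.6 to 58.4 on day 8. The median log2 changes of the tested macrophage markers were 0.39 and -0.85 in WAT and 0.21 and -0.85 in BAT on day 4 and day 8. Of 6 tested progenitor and fibroblast markers (7 in all), 2 rose and 3 fell in WAT on day 4, 5 fell on day 8, 1 rose and 1 fell in BAT on day 4 and 4 fell on day 8. Their sum moved from 342 to 374 up to 547 to 553 FPKM in WAT on day 4 and from 1286 to 1381 down to 820 to 831 on day 8, and in BAT from 380 to 466 up to 511 to 564 on day 4 and from 552 to 556 down to 405 on day 8. Their median log2 changes were -0.25 and -0.96 in WAT and 0.002 and -0.54 in BAT on day 4 and day 8. Most of these markers thus did not share the day 4 rises of the sum, in which abundant genes weigh most. No macrophage or progenitor marker was at 0 in both libraries of a group.

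Muscle markers were read because Fitm1 and Plin5 are muscle genes. Of 6 tested (10 in all), 5 rose with EGCG in WAT on day 4, 2 rose and 1 fell in WAT on day 8, none was called in BAT on day 4 and 2 fell in BAT on day 8. Their sum was 78.7 to 80.0 FPKM in controls and 132 to 137 with EGCG in WAT on day 4, 39.3 to 46.9 and 48.7 to 55.4 on day 8, 20.0 to 29.7 and 23.3 to 29.4 in BAT on day 4, and 56.3 to 59.3 and 44.3 to 44.4 on day 8. In WAT day 4 EGCG, where this sum was highest, Fitm1 had 6, 0 and 1 reads, the first being its largest count. These reads are too few to tell whether Fitm1 moved with the muscle markers. Plin5 was called lower with EGCG in all 4 comparisons. From day 4 to day 8, 5 of the 6 tested muscle markers fell in WAT controls (33.2% of all genes did). In BAT controls 6 rose (28.7% of all genes did). Plin5 rose in the controls of both depots. The part of these other cells in the changes of the coat genes was not tested.

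Over the 8 group means of log2(FPKM + 1) the members fell into patterns that a correlation describes, with the same libraries and scaling behind every point. Plin1 ran with Fitm2 (Pearson r 0.96), Cidec (0.95) and Bscl2 (0.89), and Plin4 with Plin5 (0.90). These sets were not sharply apart, as Plin4 and Plin5 had an r of 0.69 to 0.88 with Plin1, Fitm2, Cidec and Bscl2. Plin3 had an r of -0.54 to 0.11 with the other members and Plin2 of -0.02 to 0.78. Among 10193 genes with a group mean of at least 5 FPKM in their highest group, the closest to Plin1 were Cdo1 (0.99), Smoc1 (0.99) and Lipe (0.99), and to Cidec Agpat2 (0.99), C130074G19Rik (0.98) and Gpd1 (0.98). Fitm2 was closest to Dgat1, Fgfrl1 and Enpp2 (0.997, 0.996 and 0.994), and Bscl2 to Gcdh, Gm10222 and Slc25a42 (0.99, 0.99 and 0.98). The closest to Plin4 were Irs3, Ghr and Cfd (0.99, 0.99 and 0.98) and to Plin5 Gm11827, Ddo and Nudt13 (0.99 each). Plin2 was closest to Nt5e, Mtss1 and Tnfaip8 (0.98, 0.97 and 0.96), and Plin3 to Pde8a, Gng5 and Mef2a (0.97 each).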

How the data were processed

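Gene expression was measured by RNA sequencing of 24 libraries, 3 in each of 8 groups taken from the sample labels. The authors deposited FPKM values in 2 tables, 1 of 16 libraries (replicates 1 and 2) and 1 of 8 (replicate 3). The submitters' processing notes name FastQC 0.11.9, HISAT2 2.2.0, HTSeq 0.11 and genome build mm9, and the strand setting is not given in the sources used here. Gene identifiers and lengths matched GENCODE vM1 for all 37310 genes, each length being that of the longest transcript. Multiplying FPKM by length gave whole reads for 100% of the values above 0 (tolerance 0.01), and from these the reads per library and the floor of 3 reads were taken, which cover counting error only.

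Tests across all genes used replicates 1 and 2, because the tables were scaled separately. The 14095 genes with an FPKM of at least 1 in at least 2 of 16 libraries entered a linear model of log2(FPKM + 1) with a mean for each group, fitted with limma 3.58.1 (a moderated test with an intensity trend) under R 4.3.3. It had 8 residual degrees of freedom, or 11.4 once the prior is added. For each of the 14 contrasts the two-sided p-values received a Benjamini-Hochberg adjustment over all genes, with a threshold of 0.05. Errors are SE, and intervals cover 95%. Median-ratio factors were computed within each table. The procedure was tested before use on simulated reads in which a small set of genes changed in 1 group. Most genes were unchanged there, unlike in these data, so the simulation checked the procedure and did not cover changes this broad. Replicates 1 and 2 of every group differed by more than read sampling (chi-square per degree of freedom 4.48 to 60.0). Each library was counted as a replicate of its own, although this spread may also be technical. It was widest in WAT day 8 controls (60.0), where the SD of the log2 difference of replicates was 0.23, against 0.12 to 0.15 in other groups. The model pools the spread over all groups, so SEs of comparisons with WAT day 8 controls may be too small. The 8 tested members are named in every comparison, and Fitm1 is described by its reads and FPKM only. For each tested member, the 3 genes with the highest Pearson r over the 8 group means are named, and members of the fixed lists may be named besides. Of 86 list entries, 86 were matched, 1 by a synonym (Hilpda, annotated as 2310016C08Rik). The members and the lists were chosen with earlier results of these data known. Promoter windows came from the RefSeq table of build GRCm38.p6. The alternatives tried were a pseudocount of 0.1, no filter, a filter of 5 FPKM, median-ratio scaling, quantile normalization, a replicate block, fits of both tables, voom on the recovered reads and leaving out each library in turn.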

Additional observations from a re-analysis of the deposited data

Results flagged for a closer look

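The effect of EGCG on 27 pairs of member and contrast differed between depots or between days by a test of the difference itself (limma on log2(FPKM + 1), Benjamini-Hochberg adjusted over 14095 genes). Differences of this kind were called for 28.1% to 55.4% of all genes.

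Between depots on day 4, the log2 effect in BAT minus that in WAT was 1.99 for Plin1, 1.25 for Cidec, 0.76 for Plin4 and 0.28 for Plin3, and -0.71 for Plin2. The Plin3 difference was not called without WAT day 4 control replicate 1 (adjusted p 0.0799), WAT day 4 EGCG replicate 2 (0.0740), BAT day 4 control replicate 1 (0.0757) or BAT day 4 EGCG replicate 2 (0.0847). On day 8 it was 2.07 for Plin1 and 0.70 for Cidec, and -2.35 for Plin5, -0.79 for Plin3, -0.67 for Plin2 and -0.49 for Bscl2. With a pseudocount of 0.1 that of Plin1 was 3.57 and that of Cidec 1.95. Plin2 is the member whose effect had opposite signs in the depots on day 4.

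Between days in WAT, the effect on day 8 minus that on day 4 was -3.07 for Cidec, -2.42 for Plin1, -1.81 for Plin4, -1.36 for Plin5, -1.20 for Plin2, -0.50 for Fitm2 and -0.50 for Bscl2, and 0.54 for Plin3. The Fitm2 difference was not called in 4 fits without 1 library, those without WAT day 4 control replicate 2 (adjusted p 0.0850), WAT day 4 EGCG replicate 1 (0.0989), WAT day 8 control replicate 2 (0.0830) or WAT day 8 EGCG replicate 1 (0.0897). In BAT it was -3.62 for Cidec, -3.46 for Plin5, -2.34 for Plin1, -2.27 for Plin4, -1.17 for Plin2, -0.91 for Bscl2, -0.73 for Fitm2 and -0.53 for Plin3.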

How the results depend on the processing

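Of 98 member results called in the 14 contrasts, 98 were also called in the same direction with median-ratio scaling and with a filter of 5 FPKM, 97 with quantile normalization and with voom on the recovered reads, 96 with a pseudocount of 0.1 and 95 with no filter. No called result turned its direction. Fits without 1 library kept 1529 of 1568 calls. The weakest calls were that of Bscl2 with EGCG in WAT on day 4, lost in 12 of 16 such fits, and that of Plin1 from day 4 to day 8 in WAT controls, lost in 12 of 16.

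No pairing by replicate number was seen in the values (0 of 28 group pairs had a correlation of deviations over 0.1). This does not settle whether replicates of the same number share a cell isolation. A replicate block kept 97 of 98 calls and lost that of Plin1 from day 4 to day 8 in WAT controls (adjusted p 0.0540).

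With all 24 libraries of both tables and a replicate block, 63 of the 98 calls were kept and 35 lost. The members called were 5 with EGCG in WAT and 5 in BAT on day 4, 3 between days in WAT controls, 3 and 4 between depots on day 4 and day 8, 2 and 2 for the difference in EGCG effect between depots on these days, and 5 for that between days in BAT. The other contrasts gave 7 of 8 with EGCG in WAT on day 8, 5 of 7 between days in WAT with EGCG and in BAT controls, 4 of 5 between days in BAT with EGCG, 6 of 8 for the difference between days in WAT, and 7 of 7 with EGCG in BAT on day 8. Without WAT day 8 EGCG replicate 3, left out after its values were seen, 96 of 98 calls were kept, and the first 8 counts were 8, 8, 6, 7, 8, 5, 6 and 8.

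The results that turned direction were not called. With median-ratio scaling Plin3 with EGCG in BAT on day 8 became -0.12 (-0.10 with both tables). Plin2 between days in BAT with EGCG became 0.00095 with median-ratio scaling and 0.0190, 0.0190 and 0.0202 in the fits of both tables with 24 libraries, 23 libraries and median-ratio scaling. The difference in EGCG effect between depots on day 4 became 0.0133 for Fitm2 (0.0341 with both tables) and 0.0184 for Bscl2 with median-ratio scaling, and that of Fitm2 on day 8 became 0.04995 with all 24 libraries. Fits without 1 library ranged from -0.34 to 0.11 for Fitm2 between days in WAT controls, from -0.0228 to 0.0183 for Plin2 and from -0.12 to 0.0158 for Plin4 between days in BAT with EGCG, and from -0.17 to 0.00654 for Fitm2 and from -0.21 to 0.0547 for Bscl2 between depots on day 4. The cause of these changes was not tested. Depth limits Fitm1 and, with EGCG, Plin5, which had 1 to 47 reads per library. It also limits Plin1 and Cidec in the WAT day 8 EGCG libraries, with 17, 54 and 10 reads of Plin1 and 12, 22 and 11 of Cidec.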

Other observations

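The tables of replicates 1 and 2 and of replicate 3 differed in which genes had reads. There were 464 genes at 0 in all 8 libraries of replicate 3 and above 0 in all 16 others, and 15 genes the other way round. The cause of this was not tested. Among 8466 genes with a mean above 5 FPKM, 273 differed between the tables by over 1 on the log2(FPKM + 1) scale after median-ratio scaling, with a median absolute difference of 0.18. Plin4 was lower in the second table by 0.40 and Plin1 by 0.23, and the other members differed by -0.17 (Plin3) to 0.07 (Fitm1).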
